A study of Mus musculus with 14 samples.

Results

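The 8 genes described here are Nfe2l2, which encodes the transcription factor Nrf2, and 7 of its classical targets, Hmox1, Nqo1, Gclc, Gclm, Txnrd1, Srxn1 and Slc7a11. They were picked by symbol from the 46904 genes of the expression table, and all 8 passed the filter on low values that left 46102 genes for testing. RNA-seq of polyadenylated RNA was performed on brain hemispheres of male mice 12 weeks of age, 48 h after a 20 min occlusion of the middle cerebral artery (MCAO) by a filament and reperfusion. The 4 groups were the contralateral (CL) hemisphere of Cort+/+ mice (n = 3), the ischemic (MCAO) hemisphere of Cort+/+ mice (n = 3), the CL hemisphere of Cort-/- mice (n = 3) and the MCAO hemisphere of Cort-/- mice (n = 5). The study names 5 MCAO replicates, but the expression table holds only 3 for Cort+/+ mice. It also says that replicates that grouped apart were left out of comparisons with large variability. Whether this explains the missing Cort+/+ MCAO libraries is not stated. Cort-/- mice lack the gene of the neuropeptide cortistatin and were kept on a C57BL/6J background. All hemispheres, CL ones included, came from operated animals, and each library holds a whole hemisphere, so infarcted and spared tissue were measured together.

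Nrf2 is held at low levels by Keap1, an adaptor that hands it to a ubiquitin ligase. When oxidants or electrophiles modify Keap1, Nrf2 escapes degradation, pairs with a small Maf protein and binds antioxidant response elements in front of its targets. The targets degrade heme, reduce quinones, make glutathione and reduce thioredoxin and peroxiredoxins. In brain the pathway is best known from astrocytes and from myeloid cells.

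The libraries held 25989673 to 43032291 reads recovered from the table. Cort, the gene that was deleted, averaged 4.60 ± 1.73 (SD, n = 3) and 3.89 ± 0.536 RPKM (SD, n = 3) in the CL and MCAO hemispheres of Cort+/+ mice, and had at most 4 reads in any Cort-/- library. RPKM are reads scaled by the length of the gene and the size of the library. Markers of neurons, astrocytes, microglia, oligodendrocytes and endothelial cells were above 0 in all libraries, as the label brain calls for. Because each library was made from a whole hemisphere, more cells of a type and more RNA per cell cannot be told apart in any result below.

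Promoter sequences show where letters known from Nrf2 binding lie in front of these genes. RefSeq promoters of build GRCm38.p6, from 250 bases before to 50 after a start site, were matched by symbol for 6 of the 8 genes, in 8 windows, and Hmox1 and Gclc were not matched. Both strands were searched for the antioxidant response element core TGACNNNGC, which 12.4% of all 32851 promoters held, and for TGANTCAGC, the form of the Nrf2 and small Maf site, which 1.19% held. Either form was found in 13% of promoters. Overlapping matches of both forms were possible. TGATGCAAA, the amino acid response element bound by Atf4, was searched as well, because Slc7a11 is also a known Atf4 target, and 0.271% of promoters held it. The stretches below run 5′ to 3′ on the strand of the gene, each 80 bases long, with the matched letters in capitals.
Nfe2l2: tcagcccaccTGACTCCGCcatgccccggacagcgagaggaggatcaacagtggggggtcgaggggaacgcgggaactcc
Gclm: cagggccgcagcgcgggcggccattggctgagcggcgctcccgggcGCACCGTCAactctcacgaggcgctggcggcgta
Txnrd1: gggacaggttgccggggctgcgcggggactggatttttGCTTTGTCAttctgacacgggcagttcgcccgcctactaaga
Srxn1: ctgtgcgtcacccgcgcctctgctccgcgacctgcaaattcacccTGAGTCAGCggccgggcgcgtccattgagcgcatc
Slc7a11: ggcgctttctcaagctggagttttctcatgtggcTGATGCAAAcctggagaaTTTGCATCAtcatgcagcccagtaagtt
The Nfe2l2 stretch (chr2:75704834-75704913, minus strand) held the core at position -240 from the start site. In Gclm (chr3:122245377-122245456, plus strand) the core lay on the opposite strand at -134. Txnrd1 has 3 RefSeq windows, and the core was found on the opposite strand at -92 of the second one (chr10:82859076-82859155, plus strand). Srxn1 (chr2:152105434-152105513, plus strand) carried the Nrf2 and small Maf site at -45, and a core match on the opposite strand at 29 bases after the start. Slc7a11 (chr3:50443634-50443713, minus strand) held neither Nrf2 form in its window but the amino acid response element 2 times, at -66 and, on the opposite strand, at -48. The Nqo1 window (chr8:107403156-107403455, minus strand) held none of these letters. A match describes letters in the window and is not evidence of binding.

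The first question was whether ischemia changed these genes when both genotypes were considered. In limma, a linear model on log2(RPKM + 0.1) with moderated variances and Benjamini-Hochberg adjusted p over all genes tested, 4 of 8 genes were higher in MCAO than in CL hemispheres: Hmox1, Nfe2l2, Slc7a11 and Txnrd1. None was called lower. The 8 genes were chosen with earlier results of these data known, so the shares of other genes are given as a description. Over all genes tested 2.52% were called higher, and among the 15063 genes averaging 1 RPKM or more, below called expressed genes and including all 8, 5.56% were called higher and 2.5% lower. At an unadjusted p under 0.05 in either direction there were 6 of the 8, compared with 14.9% of all genes. Gclc was among these 6, with a lower value in MCAO (log2 FC -0.11). The median log2 fold change (FC) of the 8 genes was 0.19, beside -0.03 for expressed genes. Libraries of the MCAO groups lay wholly above all 6 CL libraries for 1 gene, Nfe2l2, compared with 3.76% of expressed genes.

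**Figure D1:**
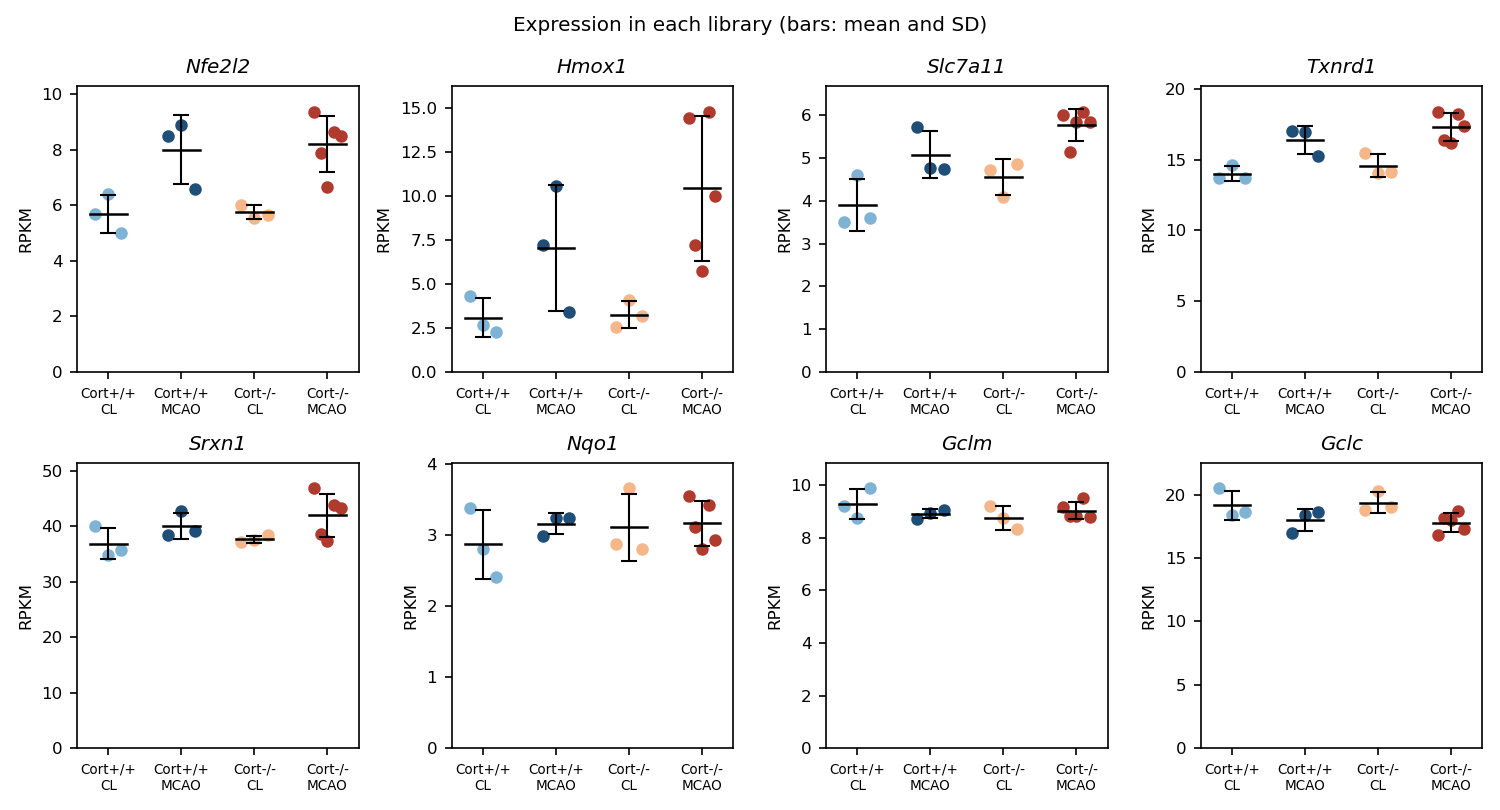
Each panel plots the RPKM of 1 gene (vertical axis, starting at 0) in every library of the 4 groups, with points for libraries and black bars for the mean and SD. Hmox1 spreads from 5.76 to 14.8 RPKM over the 5 Cort-/- MCAO libraries, whereas Gclm stays between 8.32 and 9.88 RPKM in all libraries.

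Nfe2l2, the gene of the regulator itself (GRCm39 chr2:75504739-75534985, minus strand), had 5.67, 6.39 and 5.01 RPKM in the CL hemispheres of Cort+/+ mice and 8.50, 8.90 and 6.59 RPKM in their MCAO hemispheres. The Cort-/- values were 6.02, 5.55 and 5.65 RPKM in CL and 9.36, 7.89, 6.65, 8.64 and 8.48 RPKM in MCAO hemispheres. Here and below, values follow the replicate numbers, which are 2, 3 and 4 in Cort+/+ MCAO. The lowest MCAO library, replicate 4 of Cort+/+, was just above the highest CL library. The log2 FC over both genotypes was 0.49 (SE 0.0885, adjusted p = 0.00908, limma). It stayed called in 14 of 14 models that each left out 1 library. Its exons overlap those of the antisense gene E030042O20Rik, which averaged 0.0833 RPKM, and whether counting used strand is not given in the sources used here.

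Hmox1 encodes the inducible heme oxygenase, which opens the heme ring and releases iron, carbon monoxide and biliverdin (GRCm39 chr8:75820241-75827217, plus strand). CL hemispheres had 4.34, 2.67 and 2.25 RPKM in Cort+/+ and 2.53, 4.06 and 3.15 RPKM in Cort-/- mice. MCAO hemispheres had 7.20, 10.6 and 3.42 RPKM in Cort+/+ and 14.5, 7.20, 5.76, 14.8 and 9.99 RPKM in Cort-/- mice. Of the 8 genes it had the largest log2 FC and the largest SE in this model, with 1 MCAO library of Cort+/+, replicate 4, inside the CL range. Over both genotypes the log2 FC was 1.33 (SE 0.283, adjusted p = 0.0211, limma). This call rested on single libraries: it was kept in 8 of 14 models with 1 library left out, and lost without replicate 1 or 3 of Cort-/- CL, replicate 2 or 3 of Cort+/+ CL, or replicate 2 or 3 of Cort+/+ MCAO, where the adjusted p reached 0.064. The log2 FC over all alternatives ran from 1.14 to 1.58.

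Slc7a11 encodes the light chain of the cystine and glutamate exchanger, which imports the cystine needed for glutathione (GRCm39 chr3:49846975-50398070, minus strand). It had 3.51, 4.61 and 3.61 RPKM in CL and 5.73, 4.77 and 4.75 RPKM in MCAO hemispheres of Cort+/+ mice. Cort-/- mice had 4.72, 4.08 and 4.87 RPKM in CL and 6.01, 5.14, 5.85, 6.08 and 5.84 RPKM in MCAO hemispheres. Within each genotype MCAO libraries lay above CL libraries, while Cort+/+ MCAO and Cort-/- CL libraries overlapped. The log2 FC over both genotypes was 0.36 (SE 0.0751, adjusted p = 0.0201, limma), and the call was lost without replicate 2 of Cort-/- CL, replicate 3 of Cort+/+ CL or replicate 2 of Cort+/+ MCAO (highest adjusted p 0.0589). Slc3a2, its partner chain, had a log2 FC of 0.22 (adjusted p = 0.0552, limma).

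Txnrd1, the cytosolic thioredoxin reductase (GRCm39 chr10:82669785-82733546, plus strand), had a smaller log2 FC with a small SE. It had 13.7, 14.6 and 13.7 RPKM in CL and 17.0, 16.9 and 15.2 RPKM in MCAO hemispheres of Cort+/+ mice. In Cort-/- mice it had 15.5, 14.1 and 14.1 RPKM in CL and 18.4, 16.4, 16.2, 18.2 and 17.4 RPKM in MCAO hemispheres. All MCAO libraries of a genotype exceeded its CL libraries, and only replicate 4 of Cort+/+ MCAO fell below the highest Cort-/- CL library. The log2 FC was 0.24 (SE 0.0438, adjusted p = 0.0103, limma), called in 14 of 14 models with 1 library left out.

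The other 4 genes were not called. Srxn1, the sulfiredoxin that repairs over-oxidized peroxiredoxins (GRCm39 chr2:151947436-151957687, plus strand), had 40.0, 34.8 and 35.6 RPKM in CL and 38.4, 42.7 and 39.1 RPKM in MCAO hemispheres of Cort+/+ mice. Those of Cort-/- mice were 37.1, 37.5 and 38.4 RPKM in CL and 46.8, 38.6, 37.3, 43.9 and 43.3 RPKM in MCAO hemispheres. The groups overlapped in both genotypes, and the log2 FC was 0.14 (SE 0.0547, adjusted p = 0.247, limma). Its exons overlap the antisense gene 9230118N01Rik.

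Nqo1, the quinone reductase most often used as a readout of Nrf2 activity (GRCm39 chr8:108113835-108129934, minus strand), ranged from 2.42 to 3.66 RPKM over all 14 libraries. Cort+/+ hemispheres averaged 2.87 ± 0.490 (CL, SD, n = 3) and 3.16 ± 0.148 RPKM (MCAO, SD, n = 3), and Cort-/- hemispheres 3.11 ± 0.474 (CL, SD, n = 3) and 3.17 ± 0.317 RPKM (MCAO, SD, n = 5). All groups overlapped. The log2 FC was 0.09 with a 95% interval from -0.10 to 0.28 (adjusted p = 0.73, limma). With 115 to 240 reads per library it was the least deeply covered of the 8 genes.

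Gclc and Gclm encode the catalytic and the modifier subunit of glutamate-cysteine ligase, the rate-limiting enzyme of glutathione synthesis. Gclc (GRCm39 chr9:77661797-77701770, plus strand) had 20.5, 18.4 and 18.6 RPKM in CL and 17.0, 18.4 and 18.6 RPKM in MCAO hemispheres of Cort+/+ mice. In Cort-/- mice it had 18.8, 20.3 and 19.0 RPKM in CL and 16.8, 18.2, 17.98, 18.7 and 17.3 RPKM in MCAO hemispheres. It was the only gene of the 8 that had lower values in MCAO without overlap, in Cort-/- mice, where 9.43% of expressed genes did so. The log2 FC over both genotypes was -0.11 (95% interval -0.19 to -0.02, adjusted p = 0.199, limma). Gclm (GRCm39 chr3:122039126-122065061, plus strand) averaged 9.28 ± 0.561 (SD, n = 3) and 8.92 ± 0.175 RPKM (SD, n = 3) in CL and MCAO hemispheres of Cort+/+ mice, and 8.77 ± 0.450 (SD, n = 3) and 9.04 ± 0.311 RPKM (SD, n = 5) in those of Cort-/- mice. Its log2 FC was -0.01 with a 95% interval from -0.09 to 0.08 (adjusted p = 0.979, limma). The Gclm exons overlap on the same strand with Gm6061, a processed pseudogene that averaged 0.927 RPKM, so part of its reads could be assigned to either.

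**Figure D2:**
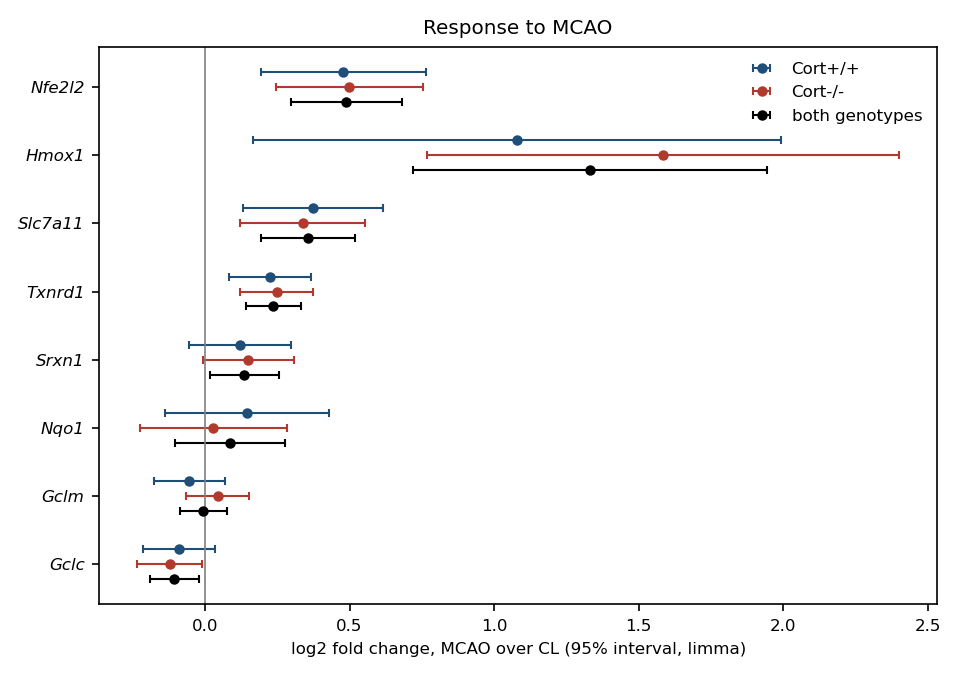
Points give the log2 fold change of MCAO over CL (horizontal axis) for the 8 genes (vertical axis) in Cort+/+ mice, in Cort-/- mice and over both, and bars the 95% interval from limma. The intervals of Nfe2l2, Hmox1, Slc7a11 and Txnrd1 lie above 0 in each genotype, and those of Nqo1 and Gclm include 0.

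The study asked how the response to ischemia differs when cortistatin is missing, so each genotype was also tested alone. In Cort+/+ mice 0 of 8 genes were called (lowest adjusted p = 0.291, limma), where 0.00868% of all genes were called higher. The study, with its own count test, called more genes higher in each genotype than were called here. At an unadjusted p under 0.05 there were 4 of the 8, Nfe2l2, Hmox1, Txnrd1 and Slc7a11, compared with 7.87% of all genes. Their log2 FC were 0.48 (SE 0.132) for Nfe2l2, 1.08 (SE 0.422) for Hmox1, 0.22 (SE 0.0653) for Txnrd1 and 0.38 (SE 0.112) for Slc7a11. MCAO libraries lay above CL libraries without overlap for 3 of them, all but Hmox1, compared with 8.19% of expressed genes.

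In Cort-/- mice 0 of 8 genes were called either, where 1.34% of all genes were called higher, but 3 stood close to the threshold. The log2 FC was 0.50 (SE 0.118) for Nfe2l2 with an adjusted p of 0.0541, 1.59 (SE 0.377) for Hmox1 with 0.0554, and 0.25 (SE 0.0584) for Txnrd1 with 0.0536 (limma). Slc7a11 had a log2 FC of 0.34 (adjusted p = 0.124, limma). Without replicate 3 of Cort-/- MCAO, or without replicate 4 of Cort+/+ MCAO, 3 of the 8 genes were called, and without replicate 3 of Cort+/+ MCAO 1 was. On the reads recovered from the RPKM, limma voom called 3, Hmox1, Nfe2l2 and Txnrd1, and 0 in Cort+/+ mice. At an unadjusted p under 0.05 there were 5 genes, Gclc among them with a log2 FC of -0.12, compared with 12.7% of all genes. MCAO libraries lay above CL libraries without overlap for 4 genes, Nfe2l2, Hmox1, Txnrd1 and Slc7a11, compared with 8.85% of expressed genes.

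The difference between the responses of the genotypes was tested by its own contrast, and 0 of 8 genes were called, or passed an unadjusted p under 0.05 (limma). Of all genes 0.00217% were called and 3.31% had an unadjusted p under 0.05. For Hmox1 the log2 FC was 0.51 larger in Cort-/- than in Cort+/+ mice, with a 95% interval from -0.72 to 1.73, which spans both a smaller and a much larger response. This difference was 0.06 without replicate 4 of Cort+/+ MCAO, 0.86 without replicate 3 of that group, 0.24 without replicate 1 of Cort+/+ CL and -0.41 with a fixed replicate block. The intervals were narrower for the other called genes, -0.36 to 0.40 for Nfe2l2, -0.17 to 0.21 for Txnrd1 and -0.36 to 0.29 for Slc7a11. Limma voom on recovered reads called 0 of 8 as well, here and in both comparisons of genotypes that follow.

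Genotypes were then compared within a hemisphere. In CL hemispheres 0 of 8 genes differed between Cort-/- and Cort+/+ mice by adjusted p or by an unadjusted p under 0.05 (limma), where 0.0152% of all genes were called and 3.91% had an unadjusted p under 0.05. The largest log2 difference was that of Slc7a11, 0.22 higher in Cort-/- mice (95% interval -0.02 to 0.46, unadjusted p = 0.0682, adjusted p = 1, limma). In MCAO hemispheres 0 of 8 genes differed in the same way, where 0.0174% of all genes were called and 3.82% had an unadjusted p under 0.05. Hmox1 averaged 10.4 ± 4.11 RPKM (SD, n = 5) when cortistatin was missing, against 7.06 ± 3.57 RPKM (SD, n = 3) in wild-type MCAO hemispheres. That is a log2 difference of 0.61 with a 95% interval from -0.21 to 1.42 (unadjusted p = 0.133, limma), and the values of both genotypes overlapped. Single libraries moved this difference, which was 0.16 without replicate 4 and 0.96 without replicate 3 of Cort+/+ MCAO (unadjusted p = 0.664 and 0.0323, adjusted p = 1 and 0.954, limma). A fixed replicate block cannot estimate it, because the block terms are nested in genotype. For Nfe2l2 the log2 difference was 0.04 (95% interval -0.22 to 0.29).

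The order of the 8 MCAO libraries was similar for several of the genes but not for all. Replicates 1 and 4 of Cort-/- MCAO were each among the 2 highest of the 8 MCAO libraries for 7 of the 8 genes. Replicate 4 of Cort+/+ MCAO was the lowest for 4 genes, Nfe2l2, Hmox1, Txnrd1 and Slc7a11, and replicate 3 of Cort-/- MCAO was among the 2 lowest for 5. Gclc ran partly against this order. Replicate 4 of Cort-/- MCAO was its highest MCAO library, but replicate 1 of Cort-/- MCAO was its lowest and replicate 4 of Cort+/+ MCAO was among its 2 highest. How common this order is among all genes was not tested. For Slc7a11, replicate 3 of Cort-/- MCAO was next after the 2 highest. Replicate 3 of Cort-/- MCAO was also the library with the fewest reads.

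Of the microglial markers 3 of 5 were higher in MCAO hemispheres, whereas most monocyte and macrophage markers and all neutrophil markers did not pass the test. The summed RPKM of 5 microglial markers (P2ry12, Tmem119, Sall1, Cx3cr1, Siglech) ranged from 31.8 to 36.8 in Cort+/+ CL, from 42.6 to 54.1 in Cort+/+ MCAO, from 33.2 to 37.8 in Cort-/- CL and from 45.3 to 60.2 in Cort-/- MCAO hemispheres, with the 3 calls made over both genotypes (limma). The sum of 8 monocyte and macrophage markers (Lyz2, Ms4a7, Mrc1, Cd163, Ccr2, Ly6c2, Chil3, Arg1) ranged from 4.86 to 15.4 in Cort+/+ CL, from 11.4 to 28.8 in Cort+/+ MCAO, from 6.80 to 12.8 in Cort-/- CL and from 17.6 to 57.2 in Cort-/- MCAO hemispheres. All 8 had a log2 FC above 0, with a median of 0.70, and 1 was called. The 5 microglial markers, all above 0 as well, had a smaller median log2 FC of 0.375. Among 5 neutrophil markers 0 were called, with a median log2 FC of -0.02, and the defining marker Ly6g was at 0 in at least 1 library of each group. The highest monocyte and macrophage sum, 57.2 RPKM, belonged to replicate 1 of Cort-/- MCAO, and the lowest of the MCAO libraries, 11.4 RPKM, to replicate 4 of Cort+/+ MCAO. Of the CL libraries, replicate 1 of Cort+/+ (15.4 RPKM) and replicate 2 of Cort-/- (12.8 RPKM) had the highest sums, and these were also the 2 CL libraries with the most Hmox1, 4.34 and 4.06 RPKM. The same 2 CL libraries had the highest summed RPKM of 7 astrocyte markers, 963.5 and 886.8. Of the MCAO libraries, replicate 1 of Cort-/- had the highest astrocyte sum, 1049 RPKM, and replicate 3 of Cort-/- the lowest, 859.3 RPKM. The microglial sum did not follow Hmox1 in CL hemispheres, since replicate 1 of Cort+/+, with the most Hmox1 of them, had the lowest microglial sum of all 14 libraries, 31.8 RPKM. That library also had the highest summed RPKM of 5 red blood cell markers, 329.6, beside 87.4 to 257.2 in the others. Replicate 4 of Cort+/+ MCAO, the lowest of the MCAO libraries in the microglial and in the monocyte and macrophage sum, was also the lowest of them in Nfe2l2, Txnrd1 and Slc7a11. The part of these cells in the values of the 8 genes was not tested.

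**Figure D3:**
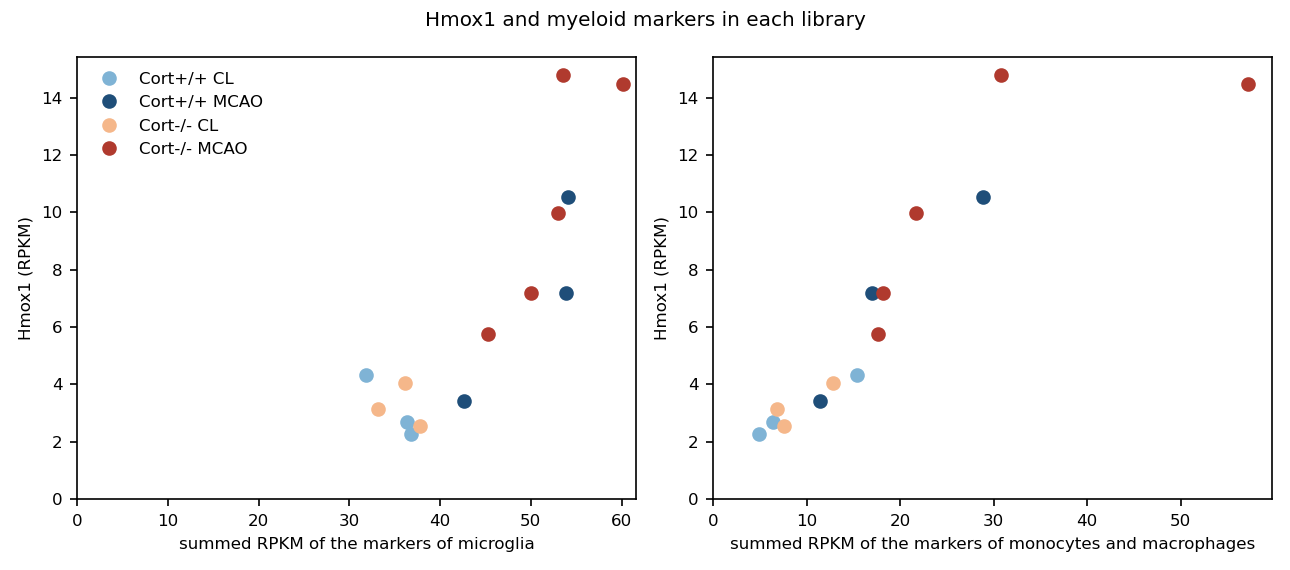
Each point is a library, with Hmox1 in RPKM on the vertical axis against the summed RPKM of the microglial markers (left) and of the monocyte and macrophage markers (right). Among MCAO libraries those with more of either sum tended to have more Hmox1, up to 14.8 RPKM in Cort-/- MCAO, and the CL library with 15.4 RPKM of the monocyte and macrophage markers had the most Hmox1 of its hemisphere, 4.34 RPKM.

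Of 7 astrocyte markers 3 were called higher, with a median log2 FC of 0.02, and of 6 endothelial markers 2 were called higher, with a median of 0.26. The 5 red blood cell markers had a median log2 FC of -0.24, and 0 of them lay above 0. The 7 neuronal markers had a median log2 FC of -0.11 and 0 were called. The 6 oligodendrocyte and 5 choroid plexus markers had medians of -0.02 and 0.05 with 0 called, and of the 4 markers of meningeal fibroblasts 1 was called higher, with a median of 0.44.

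The genes with the most similar pattern were named by Pearson r of log2(RPKM + 0.1) over the 14 libraries, which also differ by hemisphere, and r is given as a description. Closest to Hmox1 were Abcc3 (r = 0.988), the complement gene C1qa (r = 0.988) and the lysosomal protease gene Ctss (r = 0.987). Closest to Nfe2l2 were Tcirg1 (r = 0.978), a subunit of the vacuolar proton pump, Gm49342 (r = 0.978) and Parp14 (r = 0.973). Txnrd1 was most like Cyp20a1 (r = 0.969), Dock1 (r = 0.969) and Itgam (r = 0.968), the last of which encodes the myeloid integrin CD11b. Slc7a11 was most like Wnt7b (r = 0.951), Brip1os (r = 0.930) and Sulf1 (r = 0.925). For the genes not called the most similar were Rbbp8, Spint1 and Tnfaip1 for Srxn1 (highest r = 0.964), Clip4, Adamts3 and Camk1d for Gclc (highest r = 0.964), Mir5132, Snrpb and Mfsd11 for Nqo1 (highest r = 0.924), and R3hcc1 and Arl1 for Gclm (highest r = 0.878).

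Levels per length set the 8 genes apart. Srxn1 was the highest with a mean of 39.5 RPKM over all libraries, followed by Gclc with 18.5, Txnrd1 with 15.8, Gclm with 9.01, Nfe2l2 with 7.09, Hmox1 with 6.60, Slc7a11 with 4.97 and Nqo1 with 3.09 RPKM. Gclc and Txnrd1 did not overlap in CL hemispheres but did in MCAO hemispheres. The same held for Gclm and Nfe2l2. Srxn1 overlapped none of the others, and Slc7a11 overlapped both Nfe2l2 and Hmox1 over all libraries. Hmox1 overlapped Nqo1 in CL hemispheres, and in the highest MCAO library it passed Gclm and Nfe2l2. This order and these overlaps depend on the gene lengths behind the RPKM. The recovered length was 2812 bases for Srxn1, whose exons cover 9391 bases on GRCm39, but 1569 of 1759 bases for Hmox1. With other lengths the genes could rank differently.

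Further genes of the pathway were taken from 7 lists of 56 genes in all, which were also chosen with earlier results of these data known. Over both genotypes 13 were called higher, compared with 2.52% of all genes and 5.56% of expressed genes, and 0 lower, with a median log2 FC of 0.13 beside -0.03 for expressed genes. In Cort-/- mice 9 were called higher, compared with 1.34% of all genes and 3.05% of expressed genes, and in Cort+/+ mice 0 of 56, compared with 0.00868% of all genes. The counts by list that follow are over both genotypes and stand against the same 5.56% of expressed genes. For the genotype difference of the response 0 of 56 were called (limma).

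Regulators of Nrf2 did not pass the test, with 0 of 11 called. Keap1, the repressor, had a log2 FC of -0.04 (adjusted p = 0.795), Bach1, which competes for the same sites, 0.22 (adjusted p = 0.0987), and Nfe2l1, the relative of Nfe2l2, -0.05 (adjusted p = 0.427). Of the small Maf genes, Maff had a log2 FC of 1.03 (adjusted p = 0.194) and Mafk 0.16 (adjusted p = 0.695). Gsk3b, a kinase that promotes an alternative route of Nrf2 degradation, had a log2 FC of -0.19 (adjusted p = 0.0647). All these p-values came from limma over both genotypes.

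Among glutathione genes 1 of 14 was called, Gpx1, the main cytosolic glutathione peroxidase, which averaged 43.3 and 42.1 RPKM in CL and 54.2 and 60.5 RPKM in MCAO hemispheres of Cort+/+ and Cort-/- mice (log2 FC 0.42, adjusted p = 0.00702, limma). Mgst1 (log2 FC 0.39, adjusted p = 0.0829) and Gstm5 (log2 FC -0.16, adjusted p = 0.214) did not pass. Of the 6 thioredoxin and peroxiredoxin genes 3 rose. These were Prdx6 (log2 FC 0.46, adjusted p = 0.00702), Prdx1 (0.33, adjusted p = 0.00216) and Txn1 (0.29, adjusted p = 0.00765), the substrate of Txnrd1. Txnrd2, the mitochondrial reductase, had a log2 FC of 0.08 (adjusted p = 0.509). Txn1, Prdx1 and Ftl1 have near-identical processed copies in the genome, so their values are less certain.

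Of the 6 genes that supply NADPH, the electron donor of these reductases, 4 rose. Idh1 had a log2 FC of 0.29 (adjusted p = 0.00373) and Taldo1 0.25 (adjusted p = 0.00626), and Tkt and Me1, named after their values were seen, had 0.13 and 0.14. G6pdx (0.20, adjusted p = 0.0859) and Pgd (0.21, adjusted p = 0.0592) did not pass. Of 7 heme and iron genes 3 rose, Ftl1, Blvra and Blvrb, which handle the iron and the biliverdin that heme oxygenases release. Ftl1, the ferritin light chain, averaged 193.7 and 198.3 RPKM in CL and 288.5 and 334.4 RPKM in MCAO hemispheres of Cort+/+ and Cort-/- mice (log2 FC 0.65, adjusted p = 0.00739, limma). The biliverdin reductases Blvrb and Blvra had a log2 FC of 0.36 (adjusted p = 0.0136) and 0.20 (adjusted p = 0.0456), while Hmox2, the constitutive heme oxygenase, had 0.01 (adjusted p = 0.956).

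Of 8 genes for quinones and carbonyls 1 was called, Akr1b8, an aldo-keto reductase, which went from 0.547 and 0.576 RPKM in CL to 1.84 and 2.94 RPKM in MCAO hemispheres of Cort+/+ and Cort-/- mice (log2 FC 1.85, adjusted p = 0.00154, limma). Nqo2, the relative of Nqo1, had a log2 FC of 0.21 (adjusted p = 0.13). Of the 4 superoxide dismutases and catalase only Sod3, the extracellular enzyme, was called (log2 FC 0.33, adjusted p = 0.0302, limma), and Sod1, Sod2 and Cat had 0.09, -0.09 and 0.13.

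**Figure D4:**
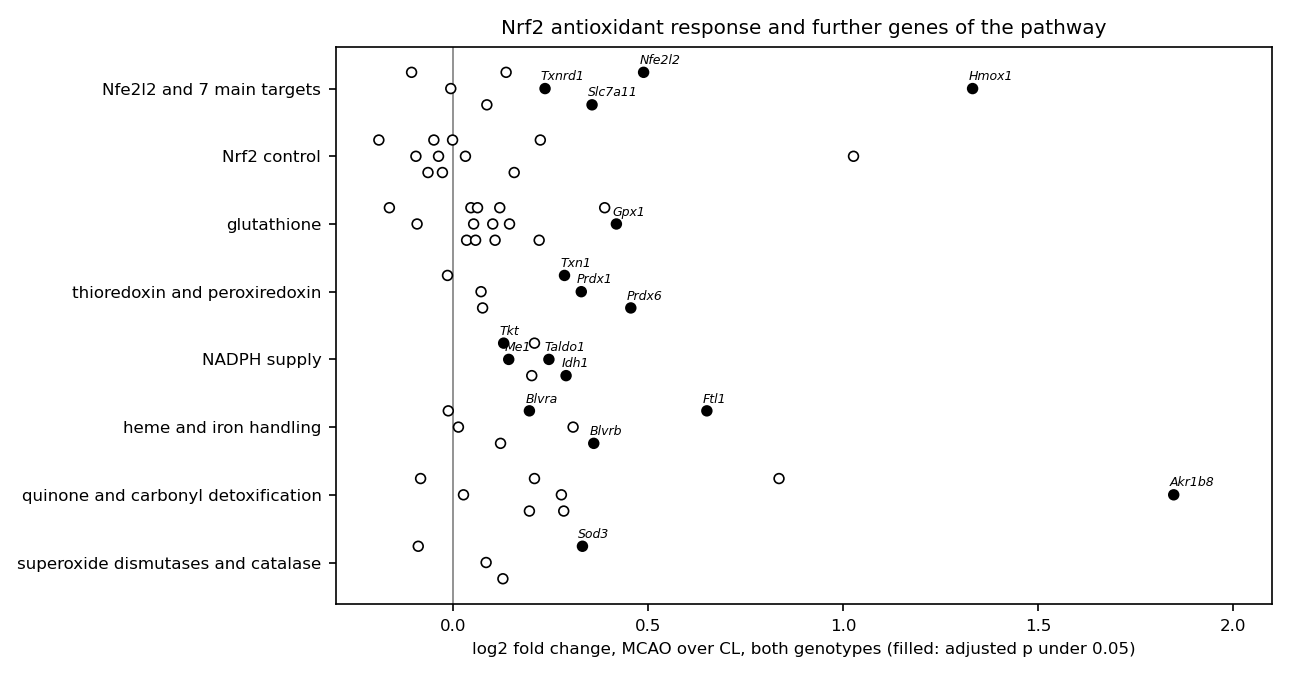
Each circle is a gene, placed by its log2 fold change of MCAO over CL over both genotypes (horizontal axis) in the row of its list (vertical axis), with the 8 genes of the report on top, filled where the adjusted p was under 0.05. Filled circles lie to the right of 0 in all rows that have any, and Akr1b8 with 1.85 and Hmox1 with 1.33 lie farthest out.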

How the data were processed

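Polyadenylated RNA of 14 brain hemispheres was sequenced. The authors used reanalyzerGSE with GRCm39 and GENCODE gene models and deposited RPKM, reads scaled by gene length and library size, for each library. Gene lengths and library scaling are not given in the sources used here. All 495656 values above 0 came out as whole reads within 0.001 of a read. Genes above 0 in at least 2 libraries were tested in 1 model of the 4 groups with limma 3.58.1 in R 4.3.3 on log2(RPKM + 0.1) with a trended prior, and p-values were Benjamini-Hochberg adjusted over 46102 genes (threshold 0.05). A fold change on this scale understates changes of genes near 0. Limma was used in place of the count test of the study because RPKM are not counts, and limma voom on recovered reads was an alternative, beside other scalings, pseudocounts, filters, library weights, replicate blocks and the omission of each library.

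Groups came from the sample labels. The labels and methods name independent biological replicates. CL and MCAO libraries with the same replicate number were not stated to come from 1 mouse, and their deviations correlated between -0.239 and 0.316, so no pairing was used. The 8 genes, the pathway lists and the marker lists were chosen with earlier results of these data known. From each pathway list up to 4 genes averaging 1 RPKM or more with the largest absolute change were named, besides Nfe2l1, Keap1, Bach1 and Hmox2, and for each of the 8 genes the 3 most similar ones. Of these similar genes 1, and of the microglial markers 1, is not reported here. Positions were taken from GENCODE on GRCm39 and promoters from RefSeq on GRCm38.p6. The linear model and the read recovery were tested on simulated data.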

Additional observations from a re-analysis of the deposited data

Results flagged for a closer look

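In the MCAO hemispheres of Cort-/- mice, Slc7a11 had 5.14 RPKM in replicate 2 and 5.84 to 6.08 RPKM in the other 4 libraries. The gap below the nearest library was 0.739 of the range of the group, above Dixon's 95% limit for 5 samples. Chance passes this limit in about 1 of 20 groups, and all 8 genes were checked in this group.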

How the results depend on the processing

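Over both genotypes, MCAO against CL, 4 of the 8 genes were called, and 2 to 4 when 1 library was left out, with 2 without replicate 3 of Cort+/+ CL or replicate 2 of Cort+/+ MCAO. In Cort-/- mice 0 were called, 2 with scaling by the median of ratios, quantile normalization, a pseudocount of 0.01 or library weights, 3 with a minimum mean of 0.5 RPKM or with limma voom on recovered reads, and 0 to 3 when 1 library was left out. The cause was not tested. For the other comparisons 0 of 8 were called under all alternatives run. Nfe2l2, Hmox1, Slc7a11 and Txnrd1 stayed above 0 in MCAO against CL, and each was called over both genotypes in 11 of 12 alternatives that kept all libraries. The exception was a fixed replicate block, which left 3 residual degrees of freedom and called 0 of 8 genes over both genotypes. CL and MCAO libraries share only a number (correlations of their deviations from -0.239 to 0.316, and 2 of 10 libraries most like the one with their own number), and a random block (correlation -0.0045) changed no count.

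Of differences that did not pass the test, some crossed 0. With the fixed replicate block the genotype difference of the response became -0.1588 for Nfe2l2, -0.4099 for Hmox1, -0.0427 for Txnrd1 and -0.0894 for Srxn1. That block cannot estimate the genotype difference within a hemisphere, because its terms are nested in genotype. The values it printed, -0.0422 for Gclc in CL and -0.0419 for Gclm in MCAO, are therefore not read as changes of sign. Rescaled to TPM, the genotype difference in MCAO was 0.0537 for Nqo1 and 0.0408 for Gclc, and the Gclm response over both genotypes 0.0227. For Nqo1 in MCAO the genotype difference was 0.0030 with the median of ratios and 0.0084 with voom, and its Cort-/- response -0.0113 after quantile normalization. With library weights the Nfe2l2 difference of the response was -0.0086. With 1 library left out, the Nqo1 response in Cort-/- mice ran from -0.0401 to 0.1462, and the Gclm response over both genotypes from -0.0255 to 0.0172. The genotype difference in CL ran from -0.0674 to 0.1047 for Nfe2l2, -0.0925 to 0.3648 for Hmox1, -0.0029 to 0.2376 for Nqo1, -0.0180 to 0.0644 for Gclc and -0.0037 to 0.0963 for Srxn1. In MCAO it ran from -0.0927 to 0.1210 for Nfe2l2, -0.0442 to 0.0386 for Nqo1, -0.0573 to 0.0090 for Gclc and -0.0010 to 0.0299 for Gclm. The genotype difference of the response ran from -0.1115 to 0.1065 for Nfe2l2, -0.2401 to 0.0003 for Nqo1, -0.0805 to 0.0019 for Gclc, -0.0286 to 0.0681 for Txnrd1, -0.0332 to 0.0751 for Srxn1 and -0.1581 to 0.0503 for Slc7a11. All values are log2 differences.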
